A study of Mus musculus with 45 samples.

Results

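The genes described here were 39 interferon response genes, chosen by name and found in the deposited uterine count table by their symbols. All 39 had at least 1 count among the 24422 genes of the table. Interferons are secreted proteins that bind paired receptors on a cell and act through the JAK kinases and the STAT factors. Type I and type III interferons assemble a complex with STAT2 and IRF9 that binds a DNA element called ISRE, whereas interferon gamma acts on an element called GAS. The genes switched on in this way encode sensors of viral RNA and DNA, proteins that block viral replication, the ubiquitin-like modifier ISG15 and its enzymes, large GTPases and the immunoproteasome. In the mouse uterus interferon epsilon is known to be made constitutively by the epithelium, in contrast to most type I interferons, which are made upon infection.

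Uterine RNA was compared between wildtype (WT) and Plag1 knockout (KO) females of the outbred CD-1 stock to ask whether maternal tissue differed between the genotypes. The product of Plag1 is a zinc finger protein that binds DNA, and in the KO allele lacZ replaced its open reading frame in all cells. Per the study's methods, the females were sexually mature, aged 1 to 3 months. They had been superovulated with 5 IU of pregnant mare serum, then 5 IU of hCG 2 days later, and were killed the day after. The methods describe mating of superovulated females with WT males, except where unfertilized oocytes were collected. Which of the mice used here were mated is not given in the labels. Each of 7 WT mice (numbers 1, 3, 5, 7, 8, 10 and 12) and 7 KO mice (numbers 2, 4, 6, 9, 11, 13 and 14) gave whole uterus, endometrium (mucosa scraped from an opened horn) and myometrium (the remaining wall), or 42 samples from 45 libraries. No group was left without hormones. Replicates were separate mice.

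The libraries held 256298 to 1222627 gene counts, so that 3 counts, taken as the lowest readable level, equalled 2.45 to 11.7 CPM (the unit of level used throughout, in which TMM factors put libraries on one scale). Such floors cover counting error only. The members together took 0.0520% to 0.237% of a sample's counts. Plag1 itself had 2 counts in the 21 WT samples and 5 in the 21 KO samples, never more than 1 in a sample, so its level could not check the labels. The scraped layer carried the epithelial markers Krt8, Krt18, Epcam and Cdh1 at higher levels than the wall, and the wall carried Acta2, Des, Myh11 and Cnn1 at higher levels, all 8 past the threshold in both genotypes (adjusted p under 0.05, edgeR). The endometria of KO mouse 13 and WT mouse 3 stood apart, since the mean log2(CPM + 1) of their smooth muscle markers was 10.7 and 10.5, close to the median of 10.5 in whole uterus and above the median of 6.79 in endometrium. Without mouse 13 the layers of KO mice gave 8 of 37 called members (17.4% of all genes), as with it, although Oasl1 was lost (adjusted p = 0.052, edgeR). Without mouse 3 the layers of WT mice gave 3 of 37 (12.1% of all genes), with Bst2 lost. In endometrium 0 members differed between the genotypes without either mouse (0% of all genes). Without mouse 13, 7 of 38 members (18.4%) had an unadjusted p under 0.05 (edgeR), against 5.3% of all genes. Without mouse 3 it was 5 of 38 (13.2%), against 4.8%.

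The members differed widely in abundance. The highest mean over the 42 samples was that of Bst2, the membrane protein tetherin that holds budding virus on the cell, at 298 CPM. It was followed by Psmb8, a catalytic subunit of the immunoproteasome, at 138 CPM, and by Ifi35 at 50.4, Isg15 at 48.4 and Xaf1 at 47.6 CPM. In the group means Bst2 was 299.8 ± 83.7 CPM in WT uterus, 165.5 ± 50.8 in WT endometrium and 293 ± 95.6 in WT myometrium (SD, n = 7 mice). In KO tissues Bst2 was 389 ± 139, 263 ± 112 and 378 ± 206.5 CPM in the same order. Psmb8 was 164 ± 66.2, 155 ± 57.5 and 80.5 ± 21.8 CPM in WT uterus, endometrium and myometrium and 185 ± 65.4, 159 ± 85.1 and 87.3 ± 29.6 CPM in KO. When the tissues of a genotype were ordered by level, neighbours in the order overlapped within their SDs. These levels are counts of captured RNA starts and were not divided by gene length.

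At the low end, 17 of the 39 members averaged under 10 CPM, and 16 were at 3 counts or fewer in at least 21 of the 42 samples. Most of these encode direct antiviral effectors. Mx1, a dynamin-like GTPase against influenza virus, had 12 counts in all samples together, Mx2 had 41 and Oas3, one of the synthetases of the RNase L activator, had 43. Cmpk2, Oasl1 and Oas2 had 58, 64 and 65 counts. The transcription factors were more abundant, with means of 35.7 CPM for Irf9, 35.5 for Irf7, 22.6 for Stat2 and 22.1 for Irf1. For several members the counted RNA may include that of other genes. In GENCODE M1 transcripts, 90.1% of the 25-base words in the first 200 bases of Oas1a also occurred in other genes, mainly Oas1g, and the share was 69.9% for Ifit3 and 47.1% for Igtp. Psmb9 and Tap1 overlap on opposite strands at chr17:34324498-34324709 (NCBIM37, the mm9 assembly), Dtx3l and Parp9 overlap likewise on chromosome 16, and Irf9 overlaps Rnf31 on the same strand, while the use of strand in counting was not stated.

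The promoters of the members were read from RefSeq windows of 300 bases, 250 before and 50 after the start, which were given for 31 of the 39. The ISRE core, searched as GAAANNGAAA on both strands, occurred in 16 of these 31 members (51.6%) and in 3.99% of 27025 genes with a window. The GAS core, searched as TTCNNNGAA, which reads the same on both strands, occurred in 9 of 31 (29.0%) and in 9.55% of all genes. Both were present in 5 members and neither in 11, and matches of both kinds overlapped in Bst2 alone. A match describes letters, not binding. Stretches of 5 members are shown because Isg15, Ifit1 and Ifit3 were among the genes that stood high in the same mice, Bst2 was the most abundant member and Stat2 had the smallest p of all members in the comparison of genotypes by layer. Capitals mark the ISRE core on either strand, and all sequences run 5′ to 3′ on the strand of the gene.
Isg15: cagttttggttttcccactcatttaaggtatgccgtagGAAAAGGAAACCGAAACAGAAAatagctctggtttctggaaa
Ifit1: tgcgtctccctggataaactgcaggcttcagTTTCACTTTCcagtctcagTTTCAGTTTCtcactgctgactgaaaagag
Ifit3: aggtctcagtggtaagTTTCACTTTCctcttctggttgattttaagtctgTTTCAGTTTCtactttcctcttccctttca
Bst2: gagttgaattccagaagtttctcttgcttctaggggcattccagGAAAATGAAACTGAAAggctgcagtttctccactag
Stat2: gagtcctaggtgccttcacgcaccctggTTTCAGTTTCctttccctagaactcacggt
An exact match placed them in NCBIM37 at chr4:155574964-155575043 on the minus strand for Isg15, chr19:34715244-34715323 on the plus strand for Ifit1 and chr19:34657847-34657926 on the plus strand for Ifit3. Bst2 was at chr8:74061466-74061545 on the minus strand and Stat2 at chr10:127707304-127707361 on the plus strand. In Isg15 3 overlapping cores begin 78, 72 and 66 bases before the start, and in Bst2 2 overlapping cores begin 130 and 124 bases before it. The 2 cores of Ifit1 begin at 104 and 85 bases before the start, those of Ifit3 at 156 and 122, and the single core of Stat2 at 222. The windows of Irf7, Psmb8, Psmb9, Tap1, Ifi35 and Xaf1 held no ISRE core as spelled here, which says nothing on binding at other letters or outside the window. Psmb8 and Ifi35 held a GAS core.

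Mice of the same tissue and genotype differed more in these genes than in most genes of their abundance. The list was chosen with earlier results of these data known, so the values below are descriptions. The measure was the dispersion that edgeR estimated for a gene divided by the dispersion expected at its level. A ratio of 1 equals that expectation, and 39.1% of all genes exceeded it. The median ratio was 1.615 over the 39 members and 0.840 over all 14822 genes, and 15 members (38.5%) but 9.45% of all genes exceeded 2. Among the transcription factors, Irf7, which amplifies the type I response, had the highest ratio of all members at 4.63, Stat2 followed at 3.97, Irf9 was at 2.65 and Irf1 at 1.06. Of the effectors, Ifit3, which binds viral RNA with Ifit1, was at 3.55, Oas3 at 3.41 and Ifit1 at 2.32. Zbp1, a sensor of Z-form nucleic acids, was at 3.49, whereas the RNA sensors Ifih1 and Ddx58 were at 0.722 and 1.22. Isg15 was at 2.26 and the proteasome subunit Psmb8 at 0.93. Without KO mouse 6 the median ratio was 1.19 and 10 of 38 members exceeded 2, compared with 8.94% of all genes, and without any single other mouse 13 to 16 exceeded 2. In bulk tissue, fewer cells of a type and less RNA per cell cannot be told apart.

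**Figure D1:**
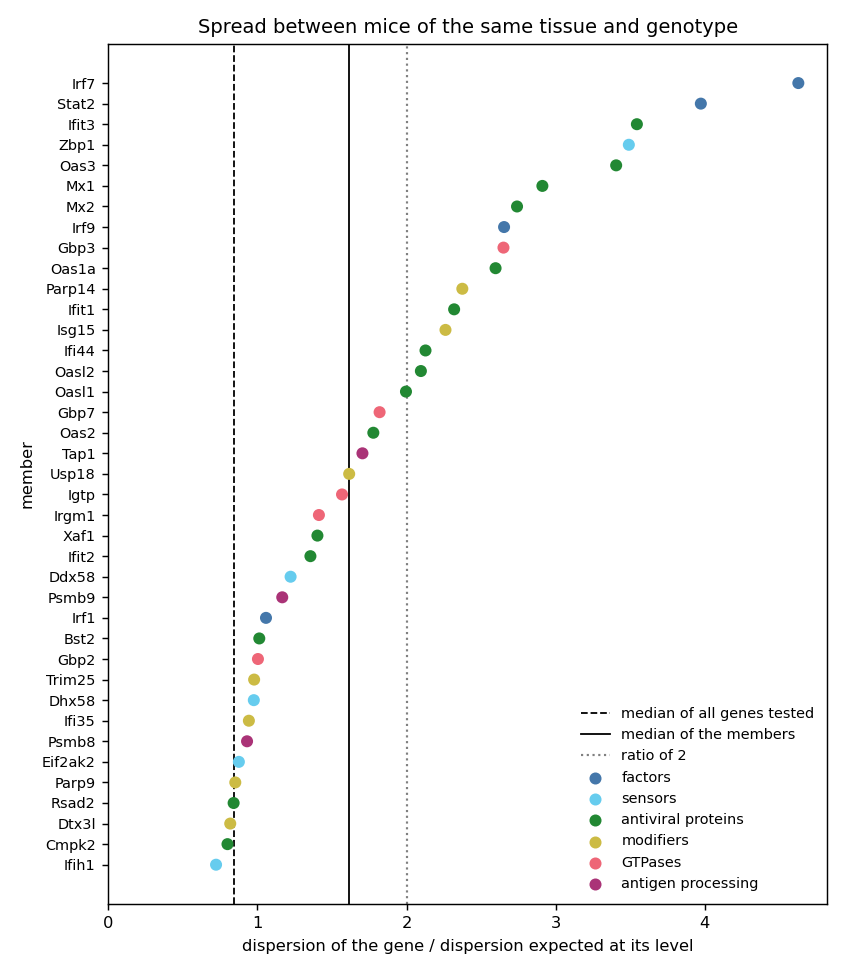
The ratio of each member's dispersion between mice to the dispersion expected at its level (horizontal axis, no unit) is shown for the 39 members, coloured by role. Vertical lines mark the medians of the members (1.615) and of all 14822 genes (0.840) and a ratio of 2, which 15 members exceeded.

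The same mice tended to be high for many members at once. Isg15, the ubiquitin-like protein conjugated to targets after interferon, was at 189 CPM in the uterus of KO mouse 6, while the other KO mice (2, 4, 9, 11, 13 and 14) had 45.5, 35.3, 99.2, 146, 22.6 and 31.7 CPM. The WT uteri (mice 1, 3, 5, 7, 8, 10 and 12) had 29.6, 19.1, 30.3, 32.4, 77.5, 84.3 and 35.1 CPM of Isg15. In endometrium Isg15 was at 253 CPM in mouse 6 and at 44.6, 52.1, 111, 77.6, 30.2 and 23.6 CPM in the other KO mice. The WT endometria had 18.2, 22.2, 12.6, 27.6, 93.2, 60.4 and 19.2 CPM of Isg15. In myometrium mouse 6 again had the highest Isg15 at 54.7 CPM, the other KO mice had 14.0, 19.8, 16.3, 35.2, 13.8 and 13.8 CPM, and the WT mice had 11.6, 15.3, 19.7, 18.3, 25.6, 30.8 and 19 CPM. The genotypes overlapped in all 3 tissues, and KO mice 6, 9 and 11 and WT mice 8 and 10 made up the 5 highest in uterus and in endometrium.

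Irf7 showed a similar ordering with a wider range. In uterus the Irf7 level reached 139 CPM in KO mouse 6 and 167 CPM in KO mouse 11, with 29.7, 18.2, 63.4 and 8.52 CPM in KO mice 2, 4, 9 and 14, and 0 counts in KO mouse 13. The WT uteri ranged from 5.32 to 67.5 CPM of Irf7 with a median of 16.0. In endometrium the highest Irf7 levels were those of KO mice 6 (182 CPM) and 9 (100 CPM), the lowest KO value was 5.79 CPM in mouse 13, and the WT values ran from 5.21 CPM in mouse 3 to 93.0 CPM in mouse 5. In myometrium Irf7 lay between 2.19 and 35.5 CPM in WT mice and between 5.92 and 49.0 CPM in KO mice, where mice 9 and 6 (39.1 CPM) were highest. Ifit3 reached 36.6 and 34.9 CPM in the uterus and endometrium of mouse 6 and was at 3 counts or fewer in 23 of the 42 samples.

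Counted over all members, KO mouse 6 was the highest of the 14 mice for 23 of 39 members (59.0%) in endometrium, against 7.39% of all 14822 genes. It was the highest for 14 members (35.9%) in uterus, against 6.54% of all genes, and for 7 members (17.9%) in myometrium, against 5.55%. This mouse was singled out after its values were seen, and ties were counted for no mouse. The next highest counts in endometrium were 6 members for KO mouse 9 and 3 for WT mouse 8, and in uterus 6 for mouse 9 and 5 for mouse 8. The mean of log2(CPM + 1) over the 39 members was 5.12 in the endometrium of mouse 6, 4.49 in mouse 9 and 3.33 in the median mouse. In uterus the mean was 4.33 in mouse 6, 4.10 in WT mouse 8 and 3.38 in the median mouse, and in myometrium it was 3.53 in mouse 6, 3.22 in KO mouse 2 and 2.95 in the median mouse. With raw library sizes in place of TMM, mouse 9 ranked first and mouse 6 second in uterus.

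By role, in endometrium mouse 6 stood above the median mouse by 2.27 on the log2 scale for the 15 antiviral effectors, 1.77 for the 5 GTPases, 1.60 for the 3 genes of antigen processing, 1.57 for the 4 factors and 1.32 for the 5 sensors. It was 1.29 for a mixed group of 7 genes, called the ISG15 group here (Isg15, Usp18, Trim25, Parp9, Parp14, Dtx3l and Ifi35). In uterus WT mouse 8 was the highest for the GTPases at 5.13, against 4.17 in mouse 6, and for antigen processing at 6.49, against 6.31 in mouse 6, and KO mouse 9 was the highest for the ISG15 group at 4.77, against 4.69 in mouse 6. In myometrium mouse 6 was first for sensors, effectors and the ISG15 group only, with differences from the median mouse of 0.87, 1.00 and 0.40. These differences between roles were not tested. A further list of 47 interferon-inducible genes that are not members, past the same filter, was highest in mouse 6 for 24 genes in endometrium, 12 in uterus and 9 in myometrium.

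Some other features were also extreme in mouse 6, though not in each tissue. The summed level of 19 leukocyte markers was 614 CPM in the endometrium of mouse 6, the highest of 14, and the KO endometria ranged from 218 to 614 CPM and the WT endometria from 216 to 423 CPM. In uterus the sum was also highest in mouse 6 at 674 CPM, with KO uteri at 277 to 674 and WT uteri at 294 to 515 CPM, although by the mean of log2 values mouse 6 was the third. In myometrium mouse 6 had 201 CPM, within the range of 152 to 219 CPM in KO and 124.5 to 274 CPM in WT. By the mean of log2 values, the leukocyte markers in endometrium were highest in mice 6, 9 and 8, in that order, as were the members. In myometrium mouse 6 ranked 11 by that mean. Of 17 leukocyte markers past the filter, 6 were highest in mouse 6 in endometrium, and for 9 it was among the 3 highest mice. Ptprc (CD45), a marker of all leukocytes, was at 37.9 CPM in the endometrium of mouse 6, where the highest KO and WT values were 41.9 and 49.5 CPM. The endometrium of mouse 6 also had the lowest mean of the smooth muscle markers, 4.37 on the log2 scale against a median of 6.79. Its mean of 5 endothelial markers was the lowest as well, at 1.87 against a median of 3.45. Its libraries were of ordinary depth, with 861923, 701253 and 535568 counts in uterus, endometrium and myometrium. The part of leukocytes, muscle, endothelium or depth in the levels of the members was not tested.

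**Figure D2:**
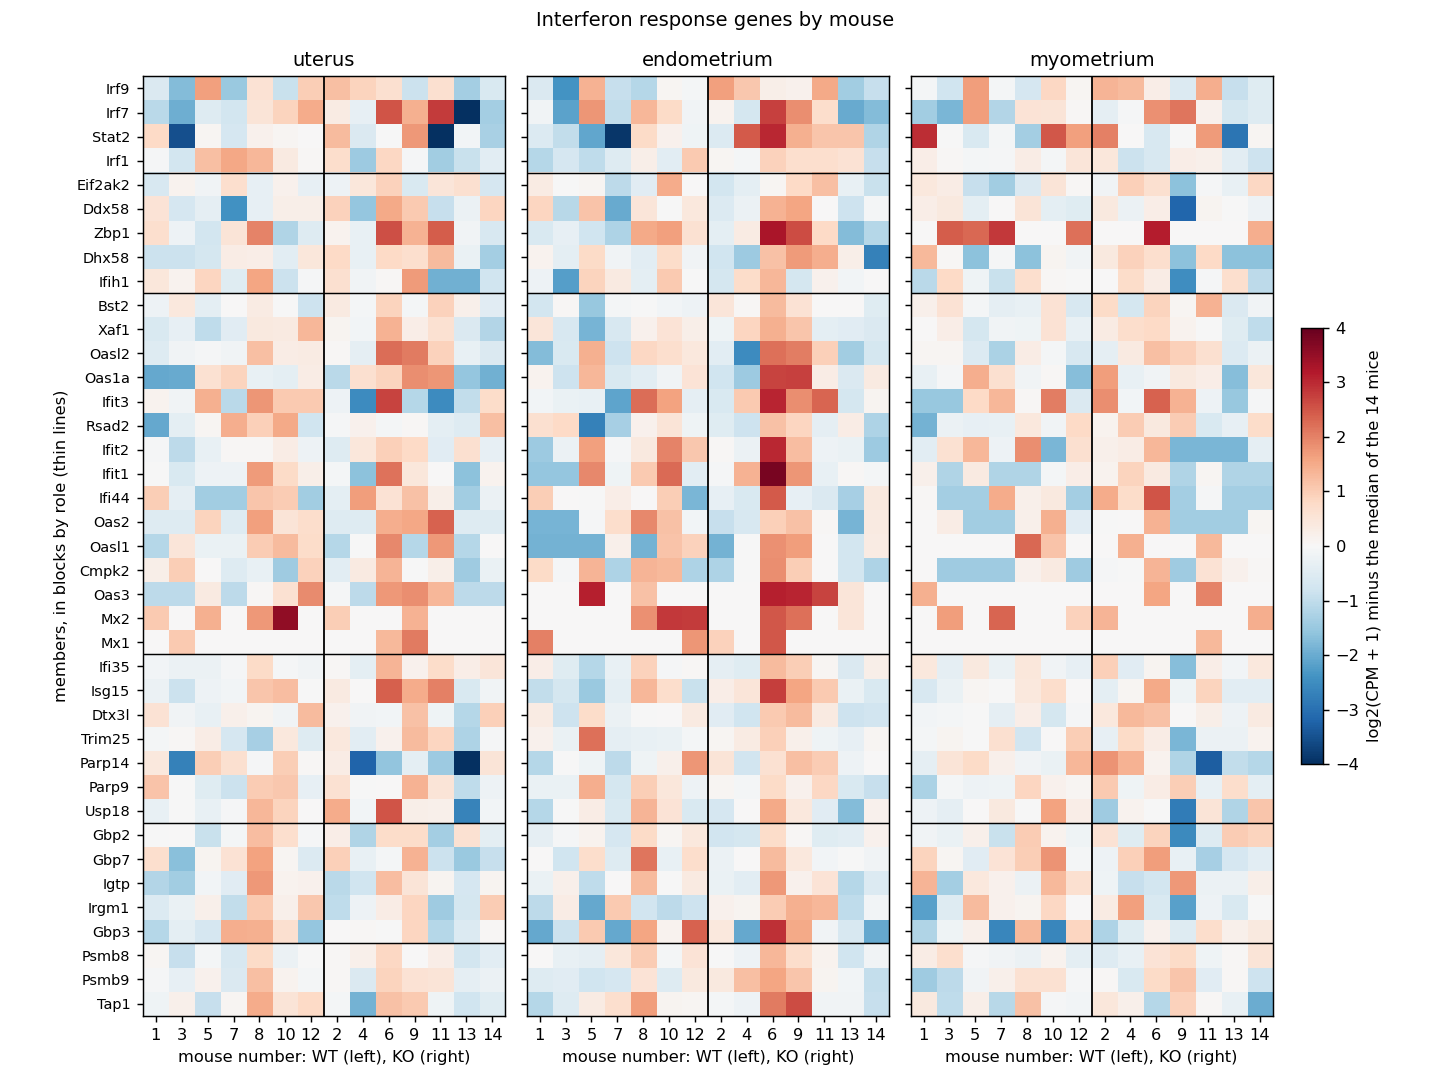
Each cell is the log2(CPM + 1) of a member minus the median of the 14 mice in that tissue, with WT mice left and KO mice right of the vertical line and members in blocks by role. The column of KO mouse 6 is red for most members in endometrium, where it was the highest mouse for 23 of 39, and less so in uterus (14) and myometrium (7). Rows that are nearly blank, such as Mx1, have few counts.

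Members varied together across mice within a tissue. After the genotype mean was removed, the median Pearson r over the 741 pairs of members was 0.458 in endometrium, 0.291 in uterus and 0.102 in myometrium, while over all pairs of 14822 genes it was 0.011, 0.006 and 0.006. These correlations rest on 14 mice, share the depth and scaling of each library and are given as descriptions. An r of at least 0.5 was found in 42.2% of member pairs in endometrium, 22.4% in uterus and 7.69% in myometrium, against 5.55%, 5.40% and 4.84% of all pairs. Without mouse 6 the medians were 0.326, 0.247 and 0.069. The members with the highest median r to the others in endometrium were Zbp1 (0.675), Oasl2 (0.613), Irf7 (0.598), Gbp3 (0.580), Isg15 (0.579) and Tap1 (0.579), the transporter that loads peptides for MHC class I. Irf9 (0.126), Trim25 (0.184) and Irgm1 (0.198) had the lowest.

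For the 5 most abundant members and the 3 with the highest dispersion ratio, levels were compared between tissues of the same mouse, which gave 24 relations over 14 mice on log2(CPM + 1) (permutation tests, two-sided). Of these, 12 had an adjusted p under 0.05 for r, all positive, and 10 of the 12 also for rho. Whole uterus contains both layers, so relations with it are not between separate tissues. Isg15 in endometrium followed Isg15 in uterus with a Pearson r of 0.88 (permutation p = 9e-05, adjusted 0.0013) and a Spearman rho of 0.84 (p = 0.00036, adjusted 0.0043). The r was 0.82 without the 2 mice farthest from the median, 0.92 within the 8 mice of plate rows A to C and 0.87 within the 6 mice of rows D to F. Isg15 in myometrium followed uterus with an r of 0.82 (adjusted permutation p = 0.0034, rho 0.74), which was 0.58 without the 2 farthest mice. Between the layers Isg15 gave an r of 0.72 (adjusted permutation p = 0.015), but a rho of 0.57 (adjusted permutation p = 0.075). Irf7 in myometrium followed endometrium with an r of 0.87 (permutation p = 0.00011, adjusted 0.0013, rho 0.89), which was 0.80 without the 2 farthest mice and 0.92 and 0.90 within the 2 blocks of plate rows. Psmb8 in endometrium followed uterus with an r of 0.70 (adjusted permutation p = 0.016, rho 0.63), which was 0.55 without the 2 farthest mice, but Psmb8 in myometrium was not related to uterus (r -0.20, adjusted permutation p = 0.62, rho -0.27). Bst2 in uterus was related to endometrium with an r of 0.61 (adjusted permutation p = 0.042, rho 0.70), which was 0.51 without the 2 farthest mice, 0.91 in rows A to C and 0.34 in rows D to F. Bst2 in myometrium was related to uterus with an r of 0.71 (adjusted permutation p = 0.015, rho 0.64, 0.44 without the 2 farthest mice) but gave 0.34 with endometrium (adjusted permutation p = 0.42). Ifi35 in endometrium followed uterus with an r of 0.72 (adjusted permutation p = 0.015, rho 0.64), which was 0.43 without the 2 farthest mice and 0.02 within rows D to F, and it gave 0.22 between myometrium and uterus and -0.20 between the layers (adjusted permutation p = 0.62 for both). Xaf1 gave an r of 0.64, 0.56 and 0.70 between uterus and endometrium, uterus and myometrium, and the layers (adjusted permutation p = 0.034, 0.067 and 0.015). The rho of Xaf1 was 0.60, 0.49 and 0.67 in the same order (adjusted permutation p = 0.057, 0.15 and 0.038). Stat2 and Ifit3 gave an r between -0.15 and 0.30 in the 6 relations tested (adjusted permutation p of 0.46 or more), although mouse 6 had the highest Ifit3 level of the 14 mice in each tissue, with 13.7 CPM in myometrium.

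**Figure D3:**
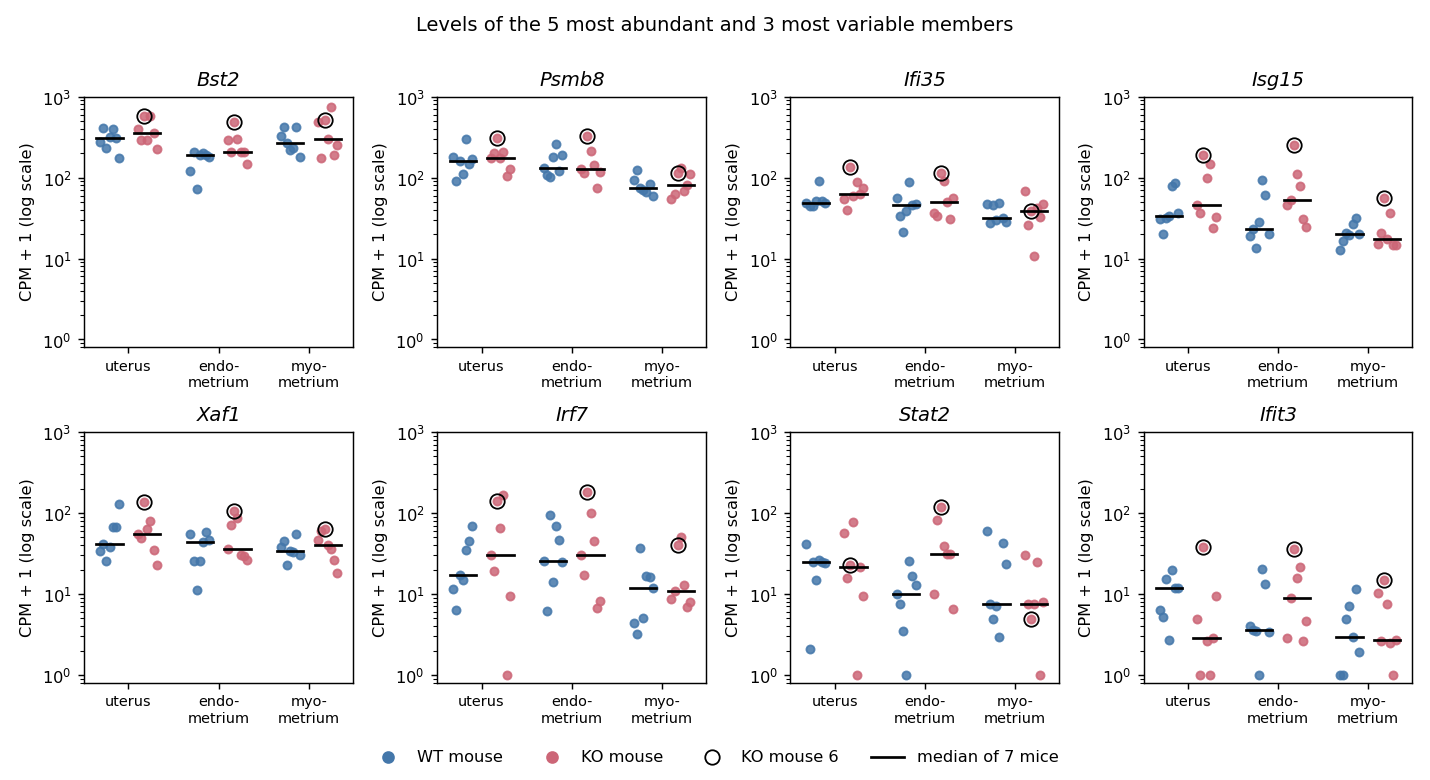
CPM + 1 on a log scale for the 5 most abundant members and the 3 with the highest dispersion ratio, 1 point per mouse, WT in blue and KO in red, with the median of 7 mice as a bar and KO mouse 6 ringed. Genotypes overlap in each panel, and Stat2 and Ifit3 reach 0 counts in single mice.

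KO and WT tissues did not differ in any member past the threshold. In uterus 37 members could be tested and 0 were called by edgeR's quasi-likelihood test with Benjamini-Hochberg adjustment (0% of 12959 genes were called), and DESeq2 also called 0. In endometrium 0 of 38 were called (0% of 13004 genes) and in myometrium 0 of 36 (0% of 12991 genes), again with 0 by DESeq2. With the 3 tissues of a mouse summed, so that each mouse gave 1 value, 0 of 38 were called (0% of 13100 genes). At an unadjusted p under 0.05 the members called were 1 in uterus (background 5.64%), 4 in endometrium (5.20%), 1 in myometrium (4.22%) and 1 in the sums (5.81%). The share in endometrium, 4 of 38, lay above its background, but without mouse 6 it was 1 of 36 (2.8%) against 5.2% of all genes.

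The members with the smallest p in uterus were Irf1, Isg15 and Parp14. Irf1, a factor induced by interferon gamma, had a log2 fold change of -0.87 ± 0.42 (SE, KO over WT, adjusted p = 0.869, edgeR). Isg15 had 0.85 ± 0.43 (adjusted p = 0.872, edgeR), and Parp14, an ADP-ribosyltransferase, -1.09 ± 0.57 (adjusted p = 0.872, edgeR). In endometrium they were Stat2 at 2.07 ± 0.60 (95% interval 0.90 to 3.24, adjusted p = 0.765, edgeR), Psmb9, another immunoproteasome subunit, at 0.89 ± 0.35 (adjusted p = 0.908, edgeR) and Isg15 at 1.18 ± 0.49 (adjusted p = 0.908, edgeR). Without mouse 6 these were 1.61 for Stat2, 0.66 for Psmb9 and 0.58 for Isg15. In myometrium Dtx3l, an E3 ligase that pairs with Parp9, was at 0.75 ± 0.32, Stat2 at -0.85 ± 0.58 and Oasl2 at 0.70 ± 0.48 (adjusted p = 0.9999 for each, edgeR).

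In the sums Isg15 was at 0.94 ± 0.42 (95% interval 0.11 to 1.77, adjusted p = 0.842, edgeR) and at 0.46 without mouse 6, and Stat2 was at 0.73 ± 0.40 (adjusted p = 0.846, edgeR). Mx2 had 10 counts in KO and 31 in WT, a ratio of 0.320 (95% counting interval 0.140 to 0.669), and a fitted log2 fold change of -1.39 ± 0.75 (adjusted p = 0.842, edgeR).

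Without mouse 6 the median of the list turned negative in endometrium. In uterus and in the sums it fell to about 0, near the median of all genes, and in myometrium it stayed above 0. In endometrium 28 of 38 members were higher in KO, with a median log2 fold change of 0.27, where the median of all genes was 0.02. Without mouse 6 it was 16 of 36 with a median of -0.10 (all genes 0.01). In the sums 29 of 38 were higher with a median of 0.30 (all genes -0.01), and 18 of 37 without mouse 6, with a median of -0.007 (all genes -0.011). In uterus 24 of 37 were higher with a median of 0.13 (all genes -0.05), and 18 of 37 without mouse 6, with a median of -0.004 (all genes -0.041). Scaling by the ERCC spike-ins moved the median in uterus to -0.18 and that of all genes to -0.37, so that the members lay above all genes by a similar amount under both scalings. In myometrium the median was 0.12 (all genes -0.03), with 21 of 36 members higher, and without mouse 6 it was 0.05 (all genes -0.004), again with 21 of 36.

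**Figure D4:**
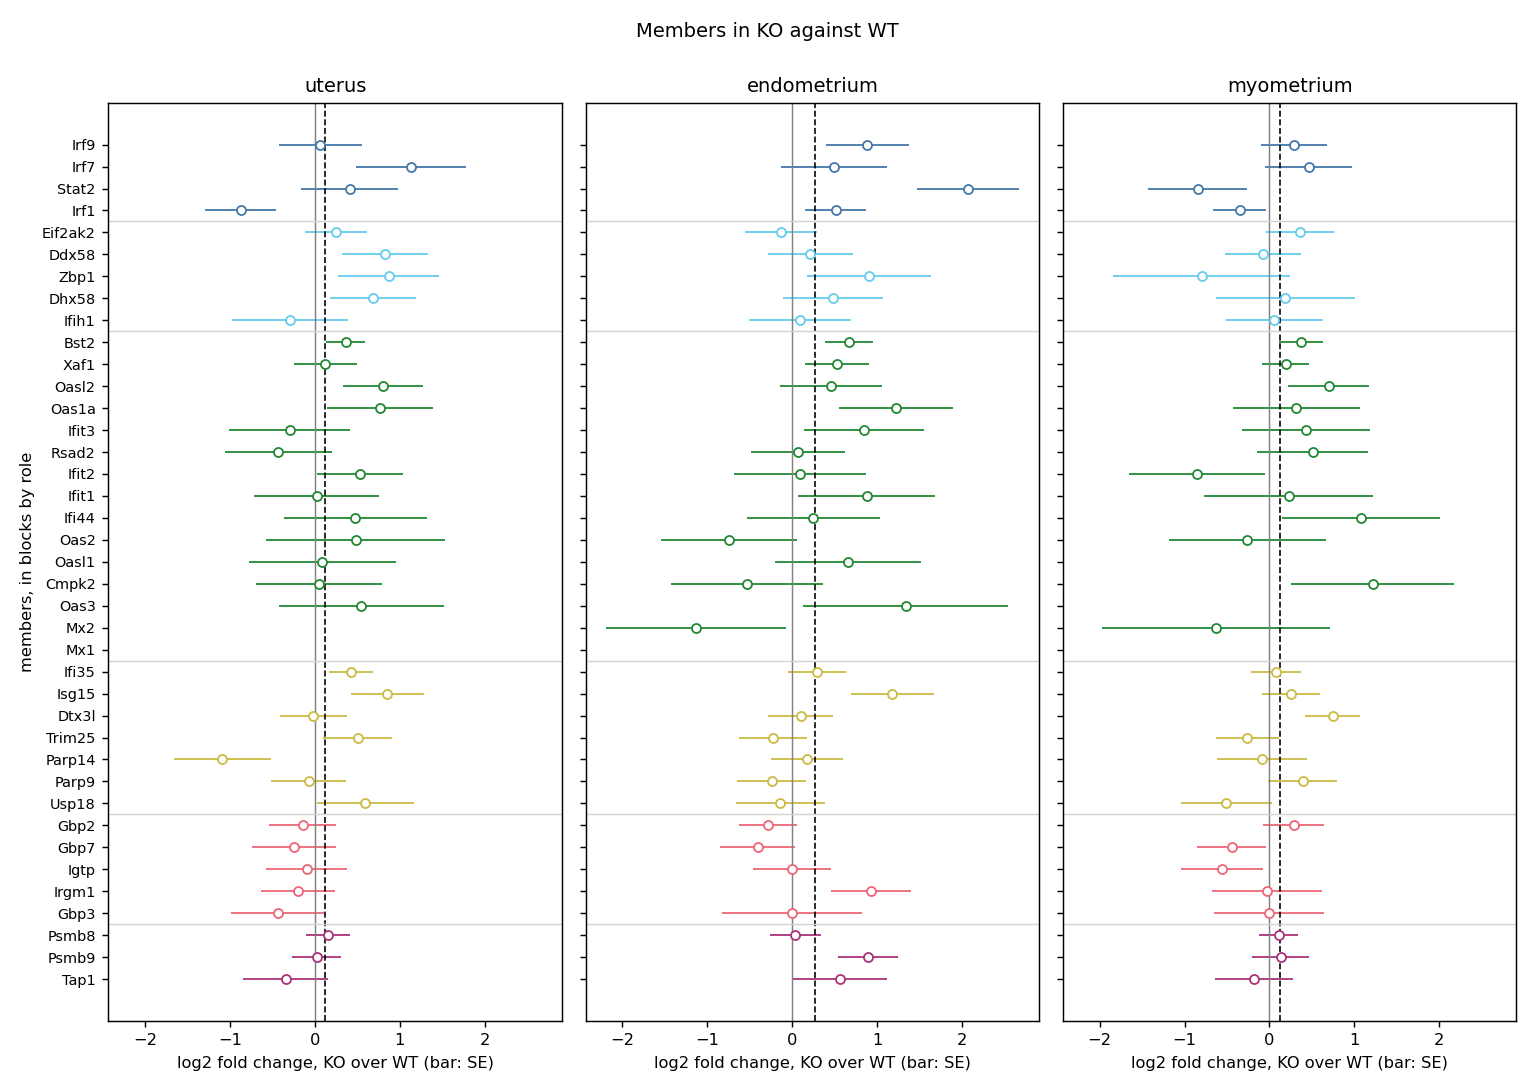
Log2 fold change of KO over WT with its SE for each member in uterus, endometrium and myometrium, in blocks by role, with the median of the members as a dashed line. No member passed the threshold, and Stat2 in endometrium, at 2.07, is the point farthest from 0.

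Between the layers, members tended to be higher in endometrium than in myometrium. In WT mice 4 of 37 members were called by edgeR, against a background of 13.2% of 13227 genes, and 9 at an unadjusted p under 0.05 (background 24.8%), so the share of members called was close to that of all genes. In KO mice 8 of 37 were called, all higher in endometrium, against 19.3% of 12969 genes, and 14 at an unadjusted p under 0.05 (31.0%). The median log2 fold change of the members was 0.56 in WT and 0.77 in KO, where that of all genes was 0.01 and 0.08, and 30 of 37 members were higher in endometrium in either genotype. Some low members, such as Oasl1, Mx2 and Cmpk2 in WT and Zbp1, Oasl1 and Oas3 in KO, did not pass the filter by myometrium alone. Their direction was partly set by the filter. With a filter at 10 CPM, also over both layers, 16 of 21 members were higher in WT (median 0.37) and 14 of 20 in KO (median 0.66). The 2 comparisons use different mice.

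In WT the immunoproteasome subunit Psmb8 was 0.95 ± 0.26 higher in endometrium on the log2 scale (SE, adjusted p = 0.0123, edgeR), and higher in 6 of 7 mice. Oasl2, an OAS-like protein, was 1.60 ± 0.48 higher (adjusted p = 0.0209, edgeR), in 6 of 7 mice, and Irf7 was 1.61 ± 0.53 higher (adjusted p = 0.0393, edgeR), in 7 of 7 mice. Bst2 went the other way, with a log2 fold change of -0.82 ± 0.26 (adjusted p = 0.0329, edgeR), lower in endometrium in 7 of 7 WT mice, although the call was lost without mouse 1, 3 or 10 (-0.69, -0.78 and -0.74). Bst2 was at 121, 209, 70.4, 192, 202, 187 and 178 CPM in the WT endometria and at 325, 417, 266, 218, 228, 416 and 180 CPM in the WT myometria, in order of mouse number, so the groups overlapped while each mouse moved the same way. In KO mice Bst2 was lower in endometrium in 4 of 7, with a log2 fold change of -0.51 ± 0.30 (adjusted p = 0.256, edgeR).

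In KO the smallest p was that of Irgm1, a GTPase of cell-autonomous immunity, at 2.24 ± 0.55 (SE, adjusted p = 0.00301, edgeR), followed by Isg15 at 1.79 ± 0.45 (adjusted p = 0.00642, edgeR), both higher in endometrium in 7 of 7 mice. Stat2 was at 1.92 ± 0.59 (adjusted p = 0.0199, edgeR), higher in 5 of 7 mice. Psmb8 was at 0.88 ± 0.29 (adjusted p = 0.0327, edgeR) in 6 of 7 and Psmb9 at 1.07 ± 0.36 (adjusted p = 0.0381, edgeR) in 7 of 7. Zbp1, with 77 counts in KO endometrium and 5 in KO myometrium, Ifit1, with 45 and 5, and Oasl1, with 23 and 2, also passed, with adjusted p of 0.0149, 0.0391 and 0.0451 (edgeR). Their count ratios were 8.88 (95% counting interval 3.65 to 28.1), 5.19 (2.07 to 16.8) and 6.63 (1.64 to 58.0), and fitted changes of such genes depend on the prior count. Zbp1, Ifit1 and Oasl1 did not reach 1 CPM in 5 samples of KO myometrium and passed the filter only through endometrium. Their direction among the 8 calls was therefore partly set by the filter.

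The calls in KO depended on single mice. Without mouse 6, 3 of 36 members remained called, Irgm1 at 2.03, Isg15 at 1.54 and Zbp1 at 4.30, when 15.5% of all genes were called. Of the 5 Zbp1 counts in KO myometrium, 4 were in mouse 6 and 1 in mouse 14. The Zbp1 value without mouse 6 thus rests on 1 myometrial count, and its size cannot be read. Without mouse 4, 3 of 37 members were called, when 14.8% of all genes were, and without mouse 9, 4 of 36, when 17.4% were. In WT 1 of 36 was called without mouse 10 (9.0% of all genes) and 1 of 35 without mouse 12 (9.8%), and 2 were called without mouse 1, 7 or 8 (11.1%, 9.9% and 10.1% of all genes). With the mouse as a block the KO count was 11 of 37 against a background of 21.4%, where Irf7, Irf9, Oas1a and, in the other direction, Gbp2 joined and Oasl1 was lost, and the WT count stayed at 4. With spike-in scaling 15 members were called in KO, with 23.5% of all genes, where the median of all genes was 0.575, and Bst2 was not called in WT, at -0.56. Leukocyte markers went both ways. Of 13 tested, Cd14 and Nkg7 were higher and Csf1r lower in WT endometrium, where 13.2% of all genes were called. In KO endometrium Cd14, Nkg7 and Cd68 were higher and Siglech lower, where 19.3% of all genes were called. The part of cell composition in the members' values was not tested.

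**Figure D5:**
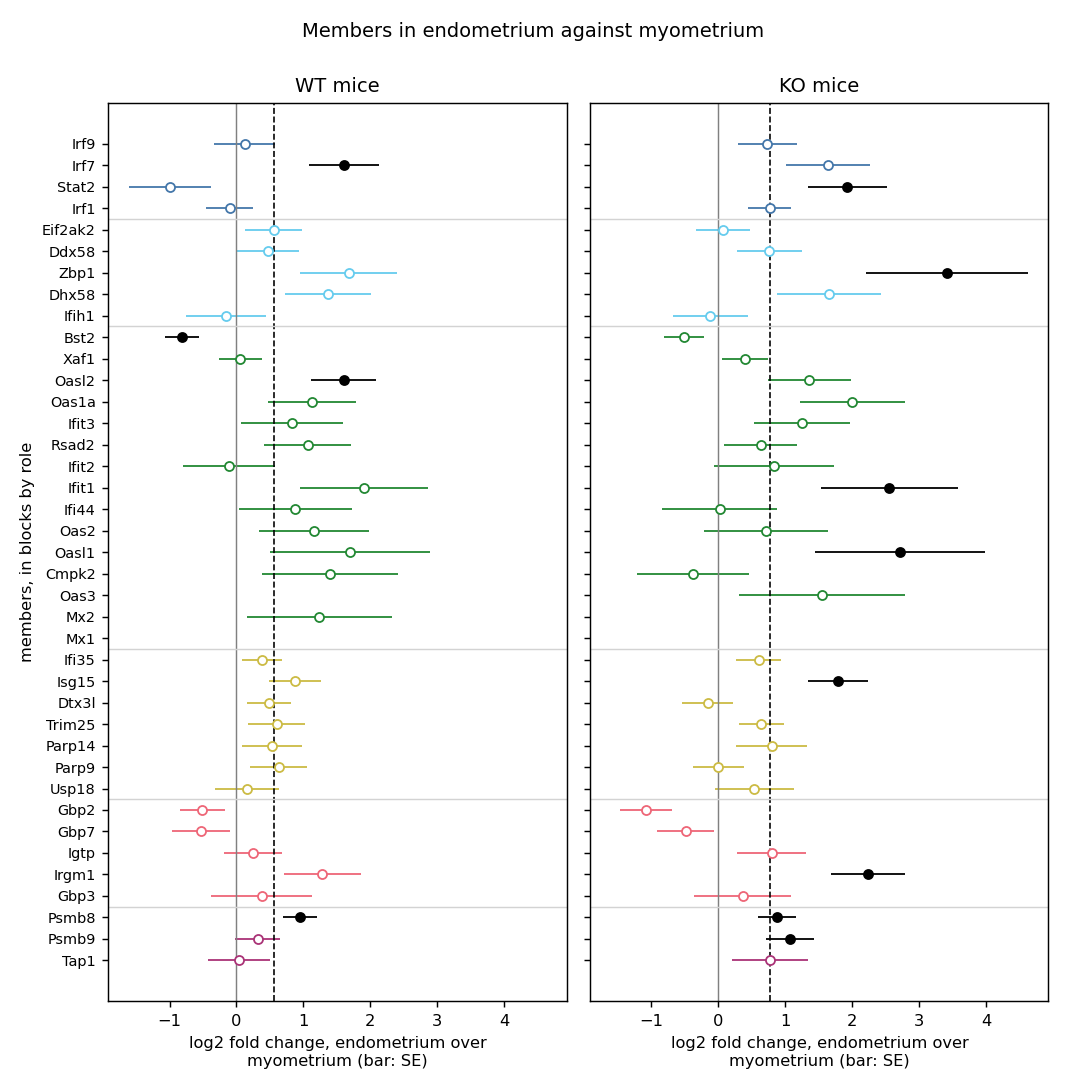
Log2 fold change of endometrium over myometrium with its SE for each member in WT and KO mice, in blocks by role, with the median of the members as a dashed line (0.56 in WT, 0.77 in KO). Filled black points passed the threshold, 4 in WT with Bst2 to the left of 0 and 8 in KO, all to the right.

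The difference between the genotypes in the layer contrast was tested directly. In the interaction 0 of 38 members were called (0% of 14314 genes, 0 by DESeq2), and 1 had an unadjusted p under 0.05 (background 4.60%). That member was Stat2, the partner of IRF9 in the type I complex, with a log2 interaction of 2.91 ± 0.92 (adjusted p = 0.970, edgeR). With the mouse as a block Stat2 passed, at 2.54 ± 0.54 (adjusted p = 0.0149, edgeR), when 0.0699% of the genes were called. In endometrium Stat2 was at 9.10, 6.52, 2.51, 0, 24.3, 15.7 and 12.0 CPM in WT mice and at 9.10, 80.2, 118, 38.2, 30.5, 30.6 and 5.44 CPM in KO mice, in order of mouse number. In myometrium Stat2 was at 58.1, 6.55, 3.94, 6.11, 1.97, 41.5 and 22.6 CPM in WT and at 29.6, 6.61, 3.91, 6.54, 23.5, 0 and 6.92 CPM in KO. The genotypes overlapped in both layers, with 5 KO endometria above the highest WT endometrium, and 13 of the 42 samples had 3 Stat2 counts or fewer.

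Of the interferons themselves, 21 were listed in the table and 19 had 0 counts in all samples, including Ifnb1 and every listed Ifna gene, in a total of 31794045 counts. Interferon gamma (Ifng) had 2 counts. Interferon epsilon (Ifne), the type I interferon of the reproductive tract epithelium, was the exception with 301 counts and was detected in 32 of 42 samples. In uterus Ifne averaged 10.3 ± 10.4 CPM in WT and 14.7 ± 8.37 in KO mice, in endometrium 8.84 ± 8.65 and 15.1 ± 9.83, and in myometrium 1.30 ± 2.18 and 1.28 ± 2.33 (SD, n = 7). It was higher in endometrium than in myometrium by 2.76 ± 0.98 in WT (SE, adjusted p = 0.0245, edgeR) and 3.21 ± 0.81 in KO (adjusted p = 0.00120, edgeR). The myometrial means lay below the lowest readable level of those libraries, 3.49 to 6.64 CPM in WT and 4.34 to 9.68 CPM in KO. The size of these changes is therefore uncertain. KO and WT did not differ in Ifne past the threshold, with 0.78 ± 0.58 in endometrium (95% interval -0.36 to 1.91, adjusted p = 0.978, edgeR).

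Between the layers 13.2% of all genes were called in WT and 19.3% in KO. Further up the pathway, 0 of 6 receptor genes were called in WT and 2 in KO. In KO Ifnar2, the signalling chain of the type I receptor, was 0.83 ± 0.19 higher in endometrium (adjusted p = 0.00320, edgeR) and Ifngr2 was 1.49 ± 0.30 higher (adjusted p = 0.000892, edgeR). Of 17 signalling genes, 4 were called in WT and 2 in KO, all higher in endometrium. Tmem173, which encodes STING, the adaptor of DNA sensing, was 2.14 ± 0.35 higher in WT (adjusted p = 9.85e-05, edgeR) and 1.78 ± 0.50 higher in KO (adjusted p = 0.013, edgeR), and the kinase Jak2 was 1.15 ± 0.34 and 0.93 ± 0.33 higher (adjusted p = 0.0221 and 0.0434, edgeR). Tbk1 and Irf2 passed in WT. Among other interferon-inducible genes, 5 of 45 were called in WT and 9 of 44 in KO, shares close to those of all genes. Of these, Trim21 in WT and Ifi204 in KO were lower in endometrium. Isg20, an exonuclease, was 2.60 ± 0.33 higher in WT and 2.24 ± 0.27 in KO (adjusted p = 1.29e-05 and 4.95e-06, edgeR), and Ifitm1, which blocks viral entry, 2.02 ± 0.38 and 2.28 ± 0.34 higher (adjusted p = 0.00069 and 5.84e-05, edgeR). In the comparisons of KO with WT, 0 of these receptor, signalling and other genes were called in any tissue.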

How the data were processed

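Uterus, endometrium and myometrium of 14 mice were sequenced by STRT, which captures the 5′ ends of RNA. The authors deposited read counts per gene. Per the study's methods, reads sharing a molecular identifier were joined, aligned by TopHat and counted with Homer on mm9; the submitters' processing notes name HTSeq and mm9. Strand use and multiply mapped reads are not given in the sources used here. Repeat libraries of a mouse and tissue were summed (3 libraries for KO mouse 13 endometrium, 2 for WT mouse 12 myometrium), and 92 spike-ins were left out of library sizes.

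Genes that reached 1 CPM in 5 samples or more were tested with edgeR 4.0.16 (R 4.3.3; TMM, quasi-likelihood F test, Benjamini-Hochberg, adjusted p under 0.05), with Wald SEs and 95% intervals. The genotype fits held the groups compared. Depth was 256298 to 1222627 counts per library. Fits were tested on simulated data. Alternatives were DESeq2 1.42.0, other scalings and filters, plate rows, left-out mice and a mouse block. Plate rows A to C held 5 WT and 3 KO mice, and rows D to F held 2 WT and 4 KO mice. Genotype was thus uneven over the plate rows, for which the main fits had no term. The layers came from the same animals, so the mouse number pairs them: deviations of the layers of a mouse correlated at 0.027 to 0.123 in WT and 0.085 to 0.179 in KO.

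Members, lists and tests were chosen with earlier results of these data known. Named genes were those past the threshold, or up to 3 with the smallest p, and for levels the 5 most abundant and the 3 most dispersed members.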

Additional observations from a re-analysis of the deposited data

Results flagged for a closer look

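In uterus of WT mice, Ifi35 was far higher in mouse 8 than in the others, with a log2(CPM + 1) of 6.49 (6.493) against 5.48 to 5.68 in the other 6 mice. In the same group Stat2 was far lower in mouse 3, at 1.04 (1.045) against 3.87 to 5.36 in the other 6 mice. These were the 2 of 54 groups of 7 mice in which the gap of the extreme mouse exceeded Dixon's 95% critical value, and chance alone gives about 5% of groups.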

How the results depend on the processing

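In the 4 comparisons of KO with WT, 0 members were called under every alternative run, including each mouse left out. Between the layers in KO, where 8 of 37 members were called (19.3% of all genes), 15 of 37 were called with spike-in scaling (23.5% of all genes), 4 of 20 with a filter at 10 CPM, where fewer members were tested (27.6% of all genes), and 3 to 8 with a mouse left out (3 without mouse 4 or 6, 4 without mouse 9). In WT, with 4 called, 1 to 4 were called with a mouse left out (2 without mouse 1, 7 or 8, 1 without mouse 10 or 12). In the interaction, 1 member, Stat2, was called with the mouse as a replicate block and 0 in every other alternative. The block changed no call in WT and gave 11 calls in KO. The cause of these changes was not tested. The number of members with a dispersion ratio above 2 was 10 to 16 with a mouse left out. Of 488 refits of 27 results for single genes, 43 lost their call, 1 gained it and 0 changed direction. Only the results called in the main fits, 4 in WT and 8 in KO between the layers, could lose a call. At 256298 to 1222627 counts per library, members with few counts, such as Mx1, could not show differences.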
